A study of Mus musculus with 6 samples.

Results

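Iron uptake, storage and haem breakdown were followed through 10 genes in mouse kidney: Tfrc, Trf, Fth1, Ftl1, Slc40a1, Slc11a2, Hmox1, Cp, Aco1 and Ireb2. They were taken by name from a list of iron-handling genes that was chosen with earlier results of these data known. All 10 were found among the 17680 gene symbols of the deposited tables. The mice were wild-type C57BL/6 animals, 6 to 8 weeks old, and whole kidneys were taken. The LPS group (3 mice) received lipopolysaccharide, a component of the bacterial outer membrane used to model septic kidney injury, into the peritoneum, and the Control group (3 mice) received PBS by the same route. Kidney RNA was sequenced in bulk 24 h later, with 1 library per mouse. The dose of LPS is not given in the sources used here. The question of the comparison, per the series' design text, was how kidney RNA differs when injury has been induced by LPS.

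Iron enters most cells bound to transferrin (Trf), which is taken up by the transferrin receptor (Tfrc), and leaves the endosome through the metal transporter Slc11a2 (DMT1). Iron that is not used is stored inside ferritin, a hollow shell built of heavy (Fth1) and light (Ftl1) subunits. It leaves the cell through ferroportin (Slc40a1), after which ceruloplasmin (Cp), a copper ferroxidase, oxidises it for loading onto transferrin. Haem oxygenase 1 (Hmox1) opens the haem ring and releases its iron. The iron regulatory proteins IRP1 (Aco1) and IRP2 (Ireb2) bind a hairpin in messenger RNA, the iron-responsive element, when iron is scarce. Bound in a 5′ untranslated region (UTR) the proteins block translation, and bound in the 3′ UTR of Tfrc they protect the messenger from decay. In the kidney, filtered iron and transferrin are recovered by tubule cells, which also make ferritin and haem oxygenase 1.

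The iron-responsive elements are shown because they divide these genes by the position of the hairpin, which decides the direction of control by the regulatory proteins. GENCODE M21 transcripts (assembly GRCm38) were searched for the loop CAGTGN flanked by a stem of 5 base pairs, G-U pairs allowed, with an unpaired C directly before the stem. Such a hairpin stood in the 5′ UTR of Fth1, Ftl1 and Slc40a1 and 4 times in the 3′ UTR of Tfrc. With 1 of the 5 pairs left unpaired it also stood in the 3′ UTR of at least 1 form of Slc11a2. Each sequence below is the sense strand, 5′ to 3′, with the 6 loop bases in capitals, and for Tfrc the first of the 4 is given.
Fth1 5′ UTR, chr19:9982732-9982761, plus strand: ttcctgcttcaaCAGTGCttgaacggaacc
Ftl1 5′ UTR, chr7:45459778-45459807, minus strand: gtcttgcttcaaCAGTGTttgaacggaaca
Slc40a1 5′ UTR, chr1:45925464-45925493, minus strand: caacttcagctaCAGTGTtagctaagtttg
Tfrc 3′ UTR, chr16:32631219-32631248, plus strand: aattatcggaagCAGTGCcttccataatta
Slc11a2 3′ UTR, chr15:100395152-100395181, minus strand: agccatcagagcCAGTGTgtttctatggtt

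The full hairpin was found in the 5′ UTR of 28 of 20529 genes (0.136%) and in the 3′ UTR of 127 of 20903 genes (0.608%), or 3.97 and 3.98 matches per megabase of the longest UTR of each gene. With 1 pair unpaired allowed, the shares were 0.852% and 4.10%. These letters were not found in the UTRs of Trf, Hmox1, Cp, Aco1 and Ireb2. A match describes the sequence only, and counts per gene do not separate the Slc11a2 forms with and without it. The RNA counts also do not measure the block of translation through the 5′ hairpins.

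The libraries held 29097558 to 33454344 counts. LPS replicate 2 stood apart through 24 genes, over 32-fold higher there than in every other library, which held 3.96% of its counts and at most 0.00496% elsewhere. None of the 10 iron genes is among them. The kidney identity of the libraries was checked with markers: Slc34a1 of the proximal tubule, Umod of the loop of Henle and Aqp2 of the collecting duct were detected in all 6. All 10 proximal tubule markers were called lower, against 24.8% of all genes tested. The sum of the 10 fell from 13300 to 15100 CPM (counts scaled to library size) in Control to 1940 to 2070 CPM in LPS kidneys. The fall was not limited to this segment. Of the loop of Henle and distal tubule markers 5 of 6 were called lower, and of the collecting duct markers 5 of 6. Umod and Aqp2 were the ones not called. Among 5 podocyte markers 2 were called lower. In whole tissue, fewer cells of a type and less RNA per cell cannot be told apart.

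In LPS kidneys, RNA of haem oxygenase 1, ceruloplasmin, both ferritin chains, the transferrin receptor, transferrin and ferroportin rose, RNA of IRP1 fell slightly, and DMT1 and IRP2 did not pass the test. Called means an adjusted p under 0.05 in edgeR's quasi-likelihood test, with Benjamini-Hochberg adjustment over the 14219 genes tested. All 10 genes passed the count filter, 7 were higher and 1 was lower, so 8 of 10 were called, against 50.5% of all genes tested (25.7% higher and 24.8% lower). At least 2-fold increases were called for 4 of the 10 by unrounded fold (Cp, Hmox1, Fth1 and Tfrc), against 8.24% of all genes. Trf lay at a log2 fold change of 1.00, just under that fold. None was called at least 2-fold lower, against 9.62%. In CPM, 8 of the 10 genes had no overlap between groups, against 60.2% of all genes. The median log2 fold change of the 10 genes was 0.81, against 0.01 over all genes tested.

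**Figure D1:**
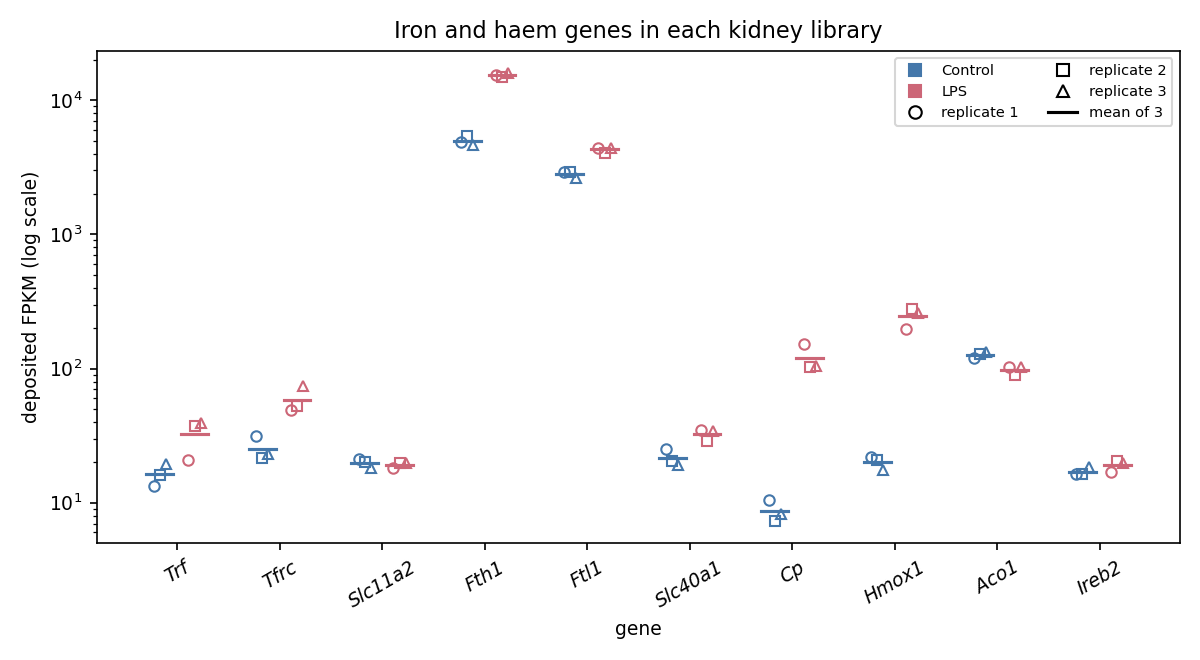
Deposited FPKM (fragments scaled by gene length and library total, log axis) of the 10 iron and haem genes in each library, with Control in blue, LPS in red, 1 symbol per replicate and a line at the mean of 3. The ferritin chains lie far above the other genes in both groups, and Hmox1 and Cp show the widest distance between the groups.

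Transferrin and its receptor both rose, with more spread between mice than the other members. Tfrc stood at 31.2, 21.5 and 23.2 FPKM in Control replicates 1, 2 and 3 and at 49.2, 52.3 and 74.4 FPKM in LPS replicates 1, 2 and 3. Every LPS library lay above every Control library, with LPS replicate 3 highest. This was a log2 fold change of 1.23 ± 0.18 (SE; 2.35-fold, edgeR adjusted p = 0.000509).

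Trf, which is made mainly by the liver in the adult, stood at 13.4, 16.1 and 19.6 FPKM in Control. It stood at 20.8, 37.1 and 39.2 FPKM in LPS replicates 1, 2 and 3. The lowest LPS library, replicate 1, lay only just above the highest Control library. Its log2 fold change was 1.00 ± 0.24 (SE, edgeR adjusted p = 0.00695). Without LPS replicate 1 it was 1.24, with the same call. The coefficient of variation of CPM was 32% for Trf and 24.5% for Tfrc among LPS libraries, against 3.62% for Fth1.

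Liver markers were measured beside Trf because liver is its main source. Of 6 such genes 1 was higher and 3 were lower, against 25.7% and 24.8% of all genes tested. The summed level of the 6 was 1280 to 1960 CPM in Control and 340 to 697 CPM in LPS kidneys. Most of this sum was Cyp2e1, which the kidney also expresses. Alb, which defines hepatocytes, stood at 8.91 to 12.9 CPM in Control and 7.94 to 8.29 CPM in LPS kidneys. None of the 6 was at 0. LPS replicate 1 had the lowest sum and the lowest Trf of the LPS libraries, and that order of the sum is the order of Cyp2e1 (308, 547 and 646 CPM in LPS replicates 1, 2 and 3). Ttr (10, 25.3 and 23.6 CPM), Apoc3 (12.2, 13.4 and 17.9 CPM) and Ahsg (0.492, 0.692 and 0.551 CPM) were also lowest in replicate 1. Alb (8.17, 7.94 and 8.29 CPM) and Apoa1 (highest in replicate 1, at 1.38 CPM) were not lowest there. The part of the liver markers in the change of Trf was not tested. Of the 75-base stretches of Trf transcripts, 65.7% also lie in another annotated gene, mostly the overlapping Gm20425, so the count of Trf is uncertain.

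Slc11a2, the proton-coupled importer, did not pass the test. It stood at 21.3, 20.2 and 18.1 FPKM in Control and at 18.2, 19.8 and 19.7 FPKM in LPS replicates 1, 2 and 3. The groups overlapped, and the log2 fold change was -0.03 ± 0.09 (SE, edgeR adjusted p = 0.773). It was 0.02 without LPS replicate 1 and 0.00 without Control replicate 1, with no call. Its exons share 94 bases with Gm5475 on the opposite strand, and whether the counting used strand is not given in the sources used here.

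Both ferritin chains rose from an already high level, the heavy chain more. Fth1 stood at 4870, 5450 and 4620 FPKM in Control and at 15400, 15000 and 15900 FPKM in LPS replicates 1, 2 and 3. The LPS libraries lay close together, far above the highest Control library. The log2 fold change was 1.64 ± 0.08 (SE; 3.12-fold, edgeR adjusted p = 7.04e-07), and 4.63% of all genes tested had at least this log2 fold change. Fth1 took 0.469% of all counts in Control and 1.45% in LPS kidneys, and it was the 3rd highest of all listed genes in mean FPKM in both groups.

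Ftl1, the light chain that favours mineral formation inside the shell, stood at 2910, 2890 and 2620 FPKM in Control and at 4400, 4070 and 4430 FPKM in LPS replicates 1, 2 and 3. Again the groups were apart, by less than for the heavy chain. Ftl1 had a log2 fold change of 0.63 ± 0.07 (SE; 1.54-fold, edgeR adjusted p = 0.000115). Ftl1 ranked 4th of all listed genes in Control and 7th in LPS kidneys by mean FPKM. Of its 75-base stretches, 78.3% also lie in another annotated gene on either strand, among them the retrocopy Ftl1-ps1, so its level is uncertain where reads could be split. For Fth1 this share was 2.04%, although copies that differ by a few bases are not counted here.

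The ratio of Fth1 to Ftl1 was set per library because the makeup of the shell differs with it. In FPKM it was 1.67, 1.89 and 1.76 in Control and 3.49, 3.70 and 3.59 in LPS replicates 1, 2 and 3. The ratio thus rose from 1.77 ± 0.11 to 3.59 ± 0.11 (SD, n = 3 per group), 2.03-fold, with every LPS library above every Control library. The two-sided exact permutation test gave p = 0.1, the smallest value that 3 against 3 libraries allow. It rests on the uncertain Ftl1 count.

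**Figure D2:**
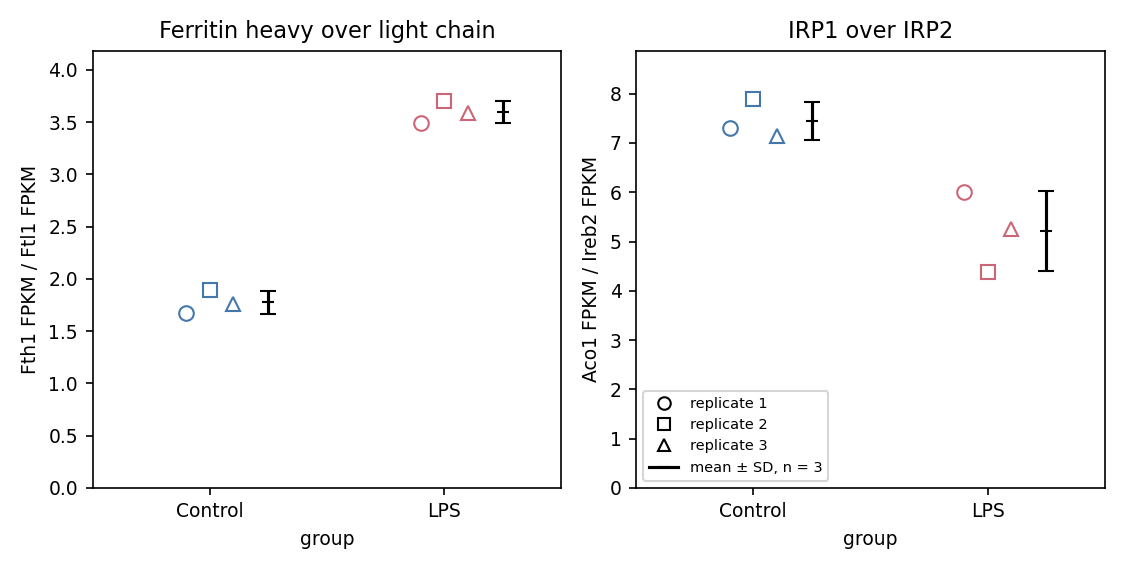
Ratio of deposited FPKM of Fth1 to Ftl1 (left) and of Aco1 to Ireb2 (right) in each library, with 1 symbol per replicate and the mean ± SD of 3 in black; both axes start at 0. The Fth1 to Ftl1 ratio is 1.67 to 1.89 in Control and 3.49 to 3.70 in LPS libraries, and the Aco1 to Ireb2 ratio is lower in LPS libraries.

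Ferroportin, the only known exporter of iron from cells, rose modestly. Slc40a1 stood at 25.2, 20.4 and 19.1 FPKM in Control and at 34.6, 28.8 and 34.1 FPKM in LPS replicates 1, 2 and 3. The lowest LPS library, replicate 2, lay just above Control replicate 1. Slc40a1 had a log2 fold change of 0.60 ± 0.11 (SE; 1.52-fold, edgeR adjusted p = 0.00182).

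Ceruloplasmin showed the largest fold of the 10. Cp stood at 10.4, 7.35 and 8.26 FPKM in Control and at 152, 102 and 104 FPKM in LPS replicates 1, 2 and 3. It was the lowest of the 10 genes in Control and the 4th highest in LPS kidneys. The log2 fold change was 3.79 ± 0.18 (SE; 13.9-fold, edgeR adjusted p = 7.26e-07), and 1.16% of all genes tested had at least this value. LPS replicate 1 was highest for Cp and lowest for Trf and Hmox1 among LPS libraries, so the members did not rank these mice in 1 order. Cp overlaps Hps3 on the opposite strand by 108 bases of exon.

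Haem oxygenase 1 rose nearly as far as ceruloplasmin. Hmox1 stood at 22.0, 20.7 and 17.6 FPKM in Control and at 197, 276 and 261 FPKM in LPS replicates 1, 2 and 3. Each LPS library was far above the Control range. Hmox1 had a log2 fold change of 3.62 ± 0.15 (SE; 12.3-fold, edgeR adjusted p = 3.30e-07), and 1.32% of all genes tested had at least this value. No 75-base stretch of Hmox1 lies in another annotated gene.

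Macrophages express both Hmox1 and Slc40a1, so their markers were measured beside these genes. Of 13 tested macrophage and monocyte markers 5 were higher and 4 lower, against 25.7% and 24.8% of all genes tested. The summed level of the markers was 151 to 240 CPM in Control and 209 to 236 CPM in LPS kidneys. Cd68 rose from 3.97 ± 1.09 to 29.3 ± 0.723 CPM, while Csf1r fell from 62.7 ± 7.34 to 34.7 ± 6.99 CPM (SD, n = 3). Spic, a factor of iron-recycling macrophages, had 2 counts over the Control libraries and 37, 12 and 58 counts in LPS replicates 1, 2 and 3. Spic, which is among the 5 higher, and Cd163 met the count filter only through the LPS libraries, so their being tested depended on a high LPS level. Of the 15 listed markers 14 were found, none of them at 0 in every library, and Timd4 was below the count filter. Their part in the rise of Hmox1 and Slc40a1 was not tested.

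The messengers of the regulatory proteins changed little. Aco1, which encodes IRP1 and works as a cytosolic aconitase when it carries an iron-sulphur cluster, stood at 120, 128 and 132 FPKM in Control and at 102, 88.9 and 103 FPKM in LPS replicates 1, 2 and 3. Every LPS library was below every Control library. Aco1 had a log2 fold change of -0.36 ± 0.09 (SE, edgeR adjusted p = 0.00874), the lowest of the 10.

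Ireb2, which encodes IRP2, a protein degraded when iron is plentiful, stood at 16.4, 16.3 and 18.5 FPKM in Control and at 17, 20.3 and 19.7 FPKM in LPS replicates 1, 2 and 3. The groups overlapped. The log2 fold change was 0.17 ± 0.10 (SE, edgeR adjusted p = 0.209). Without LPS replicate 1 it was 0.25 with an adjusted p of 0.0494, so that this 1 library decides the call (adjusted p 0.0494 to 0.44 over the alternatives).

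The ratio of Aco1 to Ireb2 in FPKM was 7.31, 7.89 and 7.14 in Control and 6.00, 4.38 and 5.25 in LPS replicates 1, 2 and 3. It fell from 7.45 ± 0.39 to 5.21 ± 0.81 (SD, n = 3 per group; two-sided exact permutation p = 0.1, the smallest possible here). IRP1 remained the more abundant messenger of the pair in every library.

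**Figure D3:**
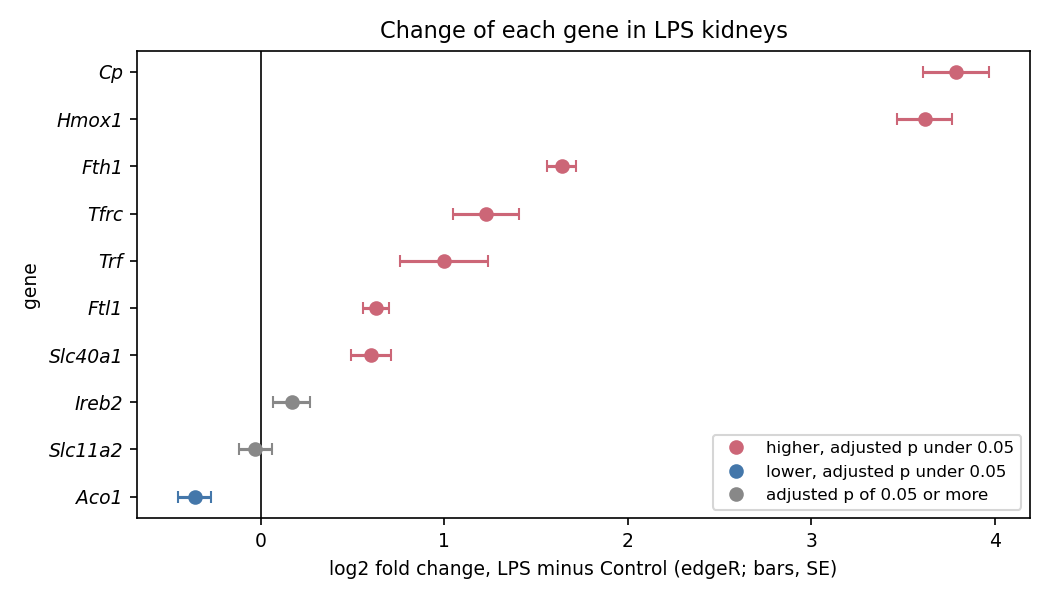
Log2 fold change of each of the 10 genes, LPS minus Control, from edgeR, with bars for 1 SE on each side, ordered by value. Cp (3.79) and Hmox1 (3.62) lie apart from the rest, Slc11a2 and Ireb2 (grey) did not pass the threshold, and Aco1 lies below 0.

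By level, Fth1 and Ftl1 led in both groups and were followed in Control by Aco1 (127 ± 6.42 FPKM, SD). In Control, Tfrc, Slc40a1, Hmox1, Slc11a2, Ireb2 and Trf then lay between 25.3 and 16.3 FPKM in the mean. Each of these overlapped its neighbour in the order, so that their order is not resolved, and Cp was lowest at 8.67 ± 1.57 FPKM. In LPS kidneys Hmox1 (245 ± 41.9 FPKM) was next after the ferritin chains. Cp (119 ± 28.3) overlapped Aco1 (98.0 ± 7.89), Slc40a1 overlapped Trf and Slc11a2 overlapped Ireb2, while Tfrc (58.7 ± 13.7) stood between these pairs.

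The genes closest in pattern were sought for the members with the highest and lowest log2 fold change, by Pearson's r of log2 CPM over the 6 libraries. For Cp they were Igtp (0.9997), Map3k1 and Tmem62 (0.999 each), and for Aco1 they were Mfn1 (0.996), Commd1 (0.994) and Atp6v1e1 (0.994). With 2 groups far apart these values mainly follow the group difference and are a description only.

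Other genes of iron and haem handling were read from 7 further lists. Of their 98 tested genes 36 were higher and 28 lower, together 65.3%, against 50.5% of all genes (25.7% higher and 24.8% lower). The median log2 fold change of the 98 was 0.12, against 0.01 over all genes. By list, 86.7% were called for iron uptake and release, 72.7% for the hepcidin axis and 30% for ferritin turnover. It was 45.5% for haem synthesis and 64.3% for haem capture and breakdown. For iron-sulphur clusters it was 65.2%, and for Nfe2l2, Bach1 and co-targets 78.6%. Of the 98, 5 (Ltf, Tfr2, Hpx, Cd163 and Ambp) met the count filter only through the LPS libraries, so the counts of the lists that hold them are not free of the level in LPS.

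Of 15 tested genes of iron uptake and release 7 rose and 6 fell, against 25.7% and 24.8% of all genes tested. Their median log2 fold change was 0.00. Lcn2, a siderophore-binding lipocalin, stood at 18.4 ± 2.03 FPKM in Control and 4140 ± 949 FPKM in LPS kidneys (SD, n = 3). Its log2 fold change was 7.83 ± 0.22. Slc39a14, a ZIP transporter that carries iron not bound to transferrin, rose by a log2 fold change of 2.05 ± 0.09, from 5.61 ± 0.334 to 23.2 ± 1.19 FPKM. Slc39a8, its close relative, fell by 1.09 on the log2 scale. Genes of the Steap family moved both ways: Steap1 (3.16), Steap2 (1.31) and Steap4 (2.47) rose and Steap3 (-0.93), the main reductase of red cell precursors, fell. Without Control replicate 3, Steap4 had a log2 fold change of 3.08.

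The protein-uptake receptors fell in the same list. Lrp2 (megalin) stood at 159 ± 9.93 FPKM in Control and 33.4 ± 4.66 FPKM in LPS kidneys, a log2 fold change of -2.25 ± 0.11, and Cubn (cubilin), through which filtered transferrin is taken up, had -2.18. Both are also proximal tubule markers, all 10 of which were lower, as were 5 of 6 loop and distal tubule and 5 of 6 collecting duct markers. Slc22a17, a receptor for the Lcn2 protein, fell by 1.21 on the log2 scale. Heph, a ferroxidase related to Cp, fell by 0.50, and without Control replicate 2 its change was -0.48 with an adjusted p of 0.0584 (edgeR; 0.00534 to 0.0584 over the alternatives). Hephl1 had 2 counts in all.

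The neutrophil markers that could be tested were higher in LPS kidneys, as was Lcn2, which neutrophils also make. Of 11 listed neutrophil markers 7 were tested and called higher, but 4 of these (Ltf, Cxcr2, Retnlg and Mmp8) met the count filter only through the LPS libraries, so their count is no support. S100a8 (5.04 ± 0.22), S100a9 (4.93 ± 0.20) and Csf3r (2.56 ± 0.31), as log2 fold changes, met it in both groups. The summed level of the 11 was 3.16 to 3.78 CPM in Control and 87.1, 182 and 74.3 CPM in LPS replicates 1, 2 and 3. The highest of these rested on Ltf (lactoferrin, an iron-binding granule protein that is also on the uptake list), at 7.77, 83.5 and 6.48 CPM. Without Ltf, a sum formed after its values were seen, the LPS libraries had 79.3, 98.9 and 67.9 CPM and Control 2.86 to 3.55 CPM. The granule genes Mpo and Elane had under 10 counts over all libraries. So did Ly6g, with 2 counts in Control and 4 in LPS kidneys. Camp, with 2 and 96 counts, was also below the count filter. Lcn2 stood at 2690, 4360 and 3600 CPM in LPS replicates 1, 2 and 3. Lcn2 and both marker sums were highest in replicate 2, but Lcn2 was lowest in replicate 1 and the sums in replicate 3. The part of neutrophils in the rise of Lcn2 was not tested.

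In the hepcidin axis, which sets ferroportin protein through the hormone hepcidin, 5 of 11 tested genes rose and 3 fell. The shares of all genes tested were 25.7% and 24.8%, and the median of the list was 0.23. Hfe, a partner of the transferrin receptor, rose from 6.14 ± 0.317 to 21.1 ± 0.68 FPKM, a log2 fold change of 1.79 ± 0.07. Bmp6, the ligand that drives hepcidin transcription in the liver, rose by 1.09 ± 0.17, and Smad1, which carries its signal, by 0.90 ± 0.11. Bmp2, another ligand of the same family, fell by 1.13 on the log2 scale, and the inhibitory Smad6 and Smad7 fell by 0.42 and 0.49. Hepcidin itself was almost undetected: Hamp had 10, 8 and 0 counts in LPS replicates 1, 2 and 3 and 1 count in the Control libraries together, below the count filter. Hamp2, Hjv, Tmprss6 and Erfe were below it too.

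Genes of ferritin turnover, iron chaperones and IRP control had the fewest calls for their number. Of 10 tested genes 2 rose and 1 fell (median 0.16), against 25.7% and 24.8% of all genes tested. Skp1, a subunit of SCF ubiquitin ligases, fell by 0.60 on the log2 scale. Rbx1 rose by 0.32 ± 0.09 and Cul1 by 0.25 ± 0.08, both from the same ligases. The call of Cul1 was lost without LPS replicate 3 (0.20, adjusted p = 0.0634) or Control replicates 1 (0.22, 0.0782) or 2 (0.24, 0.0848), within a range of adjusted p from 0.0168 to 0.0848 over the edgeR fits and other alternatives. Ncoa4, the receptor that delivers ferritin to lysosomes, had a log2 fold change of 0.12 ± 0.13, and Fbxl5, which marks IRP2 for degradation, -0.03 ± 0.08. Neither passed the test.

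In haem synthesis 2 of 11 tested genes rose and 3 fell (45.5%, against 50.5% of all genes, with a median of -0.12). Alas1, the rate-limiting enzyme outside red cells, rose from 77.3 ± 19.1 to 254 ± 19.2 FPKM, a log2 fold change of 1.72 ± 0.18. Uros, an enzyme of the pathway's middle steps, fell from 8.34 ± 1.01 to 3.03 ± 0.13 FPKM, a log2 fold change of -1.45 ± 0.11. Fech, which inserts the iron, did not pass (-0.10).

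Alas2, the form of red cell precursors, fell by 1.27 on the log2 scale. It is itself on the list of red cell markers, and the other 6 tested genes of that list also fell, against 24.8% of all genes called lower. Slc4a1, among these 6, is also on the list of collecting duct markers. It stood at 84, 76.7 and 73.3 CPM in Control and 27.2, 18 and 20.6 CPM in LPS replicates 1, 2 and 3. Without Alas2, a sum formed after its values were seen, the red cell list held 318 to 401 CPM in Control. It held 149, 112 and 74.5 CPM in LPS replicates 1, 2 and 3. The globin Hbb-bs led this sum. Ahsp and Rhd had under 10 counts in all. The part of blood cells in the change of Alas2 was not tested.

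Of 14 genes of haem capture, transport and breakdown other than Hmox1, 6 rose and 3 fell, against 25.7% and 24.8% of all genes. The median was 0.35. Slc48a1, which moves haem out of lysosomes, rose from 79.2 ± 2.53 to 130 ± 4.53 FPKM, a log2 fold change of 0.72 ± 0.07. Slc46a1, a folate and haem importer, fell from 24.2 ± 2.26 to 9.20 ± 1.67 FPKM (-1.38 ± 0.13), and Flvcr2 had -1.87 ± 0.22. Haptoglobin (Hp) and haemopexin (Hpx), which bind free haemoglobin and haem in plasma, rose by log2 fold changes of 3.95 ± 0.48 and 3.86 ± 0.63. Hpx rested on 50 Control counts, 39 of them in replicate 3, and without Control replicate 3 its log2 fold change was 5.43. Hpx met the count filter only through the LPS libraries, so its being tested depended on a high LPS level.

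The constitutive haem oxygenase Hmox2 did not pass the test. It had 40.5 ± 1.43 FPKM in Control and 39.0 ± 1.35 FPKM in LPS kidneys (SD), a log2 fold change of -0.04 ± 0.07 (edgeR adjusted p = 0.646). Control kidneys thus held more Hmox2 than Hmox1 messenger per length (20.1 ± 2.27 FPKM), and LPS kidneys the reverse. Of the reductases that act on biliverdin, Blvrb rose from 15.8 ± 0.538 to 36.3 ± 7.51 FPKM, and Blvra, at 40.1 ± 1.86 and 35.8 ± 2.82 FPKM, did not pass.

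Iron-sulphur cluster assembly, the longest list, had the most lower genes: 11 of 23 tested fell and 4 rose, with a median of -0.21. Together 65.2% were called, against 50.5% of all genes (25.7% higher and 24.8% lower). Nfs1, the desulfurase that supplies the sulphur, stood at 89.8 ± 0.917 FPKM in Control and 52.3 ± 0.614 FPKM in LPS kidneys, a log2 fold change of -0.77 ± 0.07. Cisd1, a cluster protein of the outer mitochondrial membrane, had -0.78 ± 0.09. The cytosolic scaffold Nubp1 rose by 0.79 ± 0.08.

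Among Nfe2l2 (NRF2), Bach1, the small Maf genes and targets shared with Hmox1, 10 of 14 rose and 1 (Osgin1, -0.75) fell. Over all genes tested 25.7% were called higher and 24.8% lower. The median of the list was 0.65. Srxn1 rose from 20.4 ± 0.664 to 122 ± 22.7 FPKM, a log2 fold change of 2.59 ± 0.13. G6pdx rose by 1.57 ± 0.08 and Maff by 2.80 ± 0.19. Nqo1, a standard NRF2 target, rose by 1.06, and Slc7a11, the cystine transporter, by 4.0 ± 0.35 from 35 Control counts. Nfe2l2 itself rose by 0.48 ± 0.08, and Bach1, the haem-sensing repressor of Hmox1, did not pass (0.21, edgeR adjusted p = 0.146). Without Control replicate 3 Bach1 had 0.31 with an adjusted p of 0.0462 (0.0462 to 0.426 over the alternatives).

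**Figure D4:**
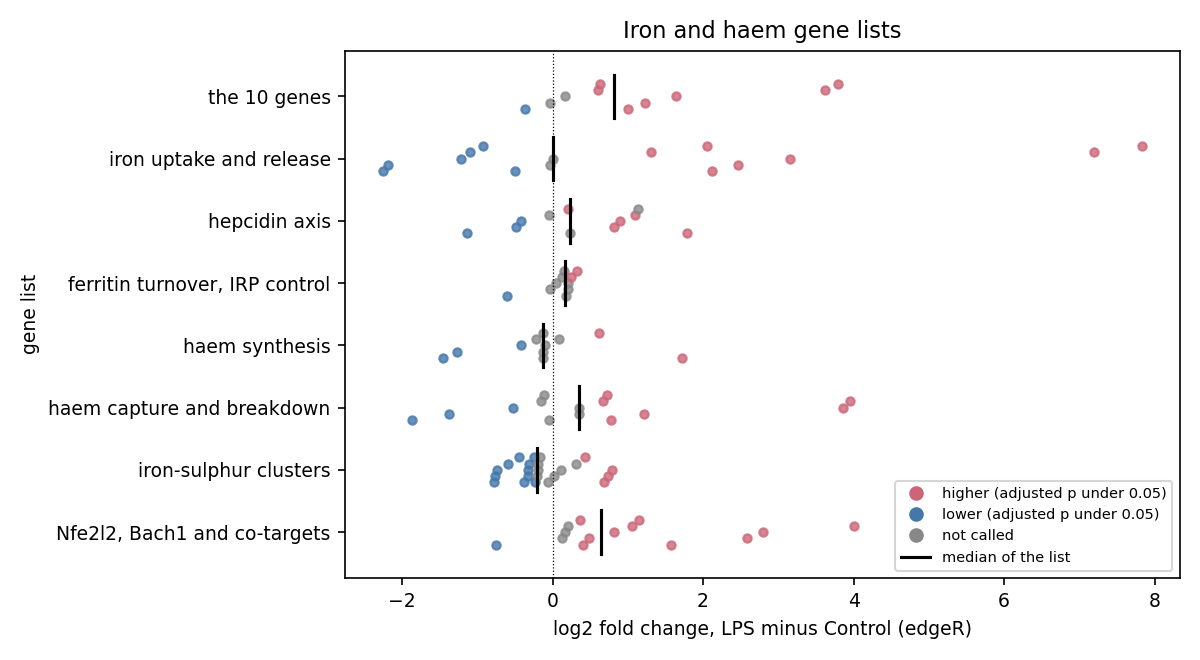
Log2 fold change (LPS minus Control, edgeR) of each tested gene of the 10 iron and haem genes and of 7 related lists, 1 point per gene, with red for called higher, blue for called lower, grey for not called and a black line at the median of each list. Points spread to both sides of 0 in most lists, and the 10 genes have the highest median (0.81).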

How the data were processed

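Kidney RNA of 6 mice was measured by bulk RNA sequencing, with TRIzol extraction and VAHTS Universal V6 library preparation (per the labels' protocols). For each library the authors deposited raw counts per gene symbol and FPKM per gene symbol. The submitters' processing notes name R 3.2.0, DESeq2, SAMtools, HTSeq and HISAT2 without role or order. For the genome build, annotation, strand setting and read length, nothing is given in the sources used here. The deposited FPKM could be rebuilt from the count, 1 fixed length per gene and the library total in 97602 of 97605 values above 0 (relative tolerance 1e-06), so FPKM carries no TMM scaling.

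The test on counts was that of edgeR 4.0.16 under R 4.3.3 (filterByExpr at its count setting of 10 and total setting of 15, TMM factors, quasi-likelihood test, two-sided, Benjamini-Hochberg over 14219 genes, with 3461 below the filter). All log2 fold changes, SEs and calls come from that fit unless another tool is named. The SE was obtained as the size of the log2 fold change over the root of F. CPM is scaled by TMM. In counts simulated for LPS against Control over 14219 genes, 67, 67 and 66 genes were changed by 1.5-fold, 2-fold and 4-fold. Recovery was 35.8% for 1.5-fold, 76.1% for 2-fold and 98.5% for 4-fold changes, and 12 of 152 calls were false. Far fewer genes were changed there than the 50.5% called in the data, so these shares do not carry over to the main fit.

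The members and lists were chosen with earlier results of these data known. All members are named, and of each further list the 3 genes with the smallest p, except 1 that is not reported here; other genes named were chosen after their values were seen. Alternatives were RLE factors, library sizes, DESeq2 1.42.0, testing without a filter or with one at mean CPM 1, limma 3.58.1 (voom, and log2 FPKM with 1 or 0.1 added), a replicate block, leaving out each library, and leaving out genes over 32-fold higher in LPS replicate 2. Uniqueness was checked with 75-base stretches of GENCODE M21 transcripts. Mitochondrially encoded genes and listed symbols not found (Ftmt among them) were not analysed here.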

Additional observations from a re-analysis of the deposited data

How the results depend on the processing

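The number of the 10 genes called was 8 under every alternative except without LPS replicate 1, where it was 9 through Ireb2, so that leaving out single libraries gave 8 to 9. All genes called numbered 6087 to 7156 and further pathway genes 58 to 65 when single libraries were left out. Leaving out 1 library gave log2 fold changes of 0.12 to 0.25 for Ireb2, -0.09 to 0.02 for Slc11a2 and -0.07 to 0.01 for Fbxl5, and the 2 last turned sign. The cause was not tested. The other 8 genes kept direction and call under all 16 alternatives. The log2 fold change ranged from 3.60 to 3.92 for Cp, 3.52 to 3.76 for Hmox1, 1.60 to 1.72 for Fth1, 0.59 to 0.67 for Ftl1, 1.02 to 1.39 for Tfrc, 0.83 to 1.24 for Trf, 0.53 to 0.71 for Slc40a1 and -0.42 to -0.29 for Aco1. The log2 difference of the Fth1 to Ftl1 ratio ranged from 0.98 to 1.06 and that of Aco1 to Ireb2 from -0.63 to -0.41. Limma on log2(FPKM + 1) gave 1.98 for Maff, 2.21 for Hpx and 0.66 for Slc7a11 (2.80, 3.86 and 4.0 in edgeR), a scale that shrinks low genes, and with 0.1 added 2.38 for Slc7a11. With the replicate number as a block (replicate block) 6745 genes, 61 pathway genes and 8 of the 10 genes were called, and the numbers share no labelled litter or day. Same-numbered libraries had correlations of their deviations of 0.0478, -0.0535 and -0.00201, and differently numbered ones -0.0865 to 0.111. No pairing by number was seen, but 3 libraries per group cannot exclude one. The simulation recovered 1.5-fold changes only in part, and the change of Aco1 was smaller (1.28-fold lower). Because few genes were changed in the simulation, its recovery does not give the power of the main fit.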
